A study of Homo sapiens with 9 samples.

Results

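Metallothioneins are small, cysteine-rich proteins that hold zinc and copper in the cytosol, and zinc transporters move the metal across membranes. The genes described here are 10 of the 52402 gene symbols counted in the series, taken by name: the metallothioneins MT2A, MT1E, MT1X, MT1F, MT1G and MT1M, the zinc exporter SLC30A1, the metal-sensing transcription factor MTF1, and the zinc importers SLC39A10 and SLC39A6. They are taken by symbol with no threshold on a measured value, but were chosen with earlier results of these data known. Each stood on 1 row of the count table. RNA was sequenced from HaCaT, a single immortalised line of keratinocytes of human origin, without the other cells of skin. The cells were kept for 24 h in DMEM with fetal bovine serum and no plastic (control), or in the same medium with fragmented polystyrene, a plastic broken into small pieces, at 25 µg/ml (fPS 25) or 100 µg/ml (fPS 100). Each group had 3 replicate libraries. Whether the replicates were separate cultures is not stated in the labels, so a p-value reflects the spread among these libraries, which may be technical.

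When zinc is plentiful in a cell, MTF1 binds it, enters the nucleus and switches on genes that carry metal response elements in their promoters, among them metallothioneins and SLC30A1. Metallothioneins then buffer the metal, and SLC30A1 in the plasma membrane carries it out of the cell, whereas importers of the SLC39 family bring it in. Metallothionein genes are also known to respond to cadmium, copper, oxidants and glucocorticoids. In human cells the genes of the MT1 and MT2 classes lie side by side on chromosome 16.

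At 100 µg/ml, 3 of the metallothioneins and the exporter rose and the importer SLC39A10 fell, while at 25 µg/ml no member passed the test. Relative to control, in fPS 100 MT1E was 8.90-fold, MT2A 6.60-fold, SLC30A1 3.75-fold and MT1X 3.08-fold higher, and SLC39A10 was at 0.405 of its control level. MT1F, MTF1 and SLC39A6 did not pass the test in that comparison. MT1G and MT1M had almost no counts in any library and were not tested. Here and below, called means an adjusted p under 0.05 in edgeR's quasi-likelihood test, with adjustment over all 14637 genes tested.

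Of the 10 members, 8 had enough counts for the test. For fPS 100 against control, 4 of them were called higher and 1 lower, where 30% of all genes tested were called (15.2% higher and 14.8% lower). The libraries of both groups did not overlap for the same 5 members, 4 of them higher and 1 lower, as was so for 41.4% of all genes (20.6% higher and 20.8% lower). For fPS 25 against control, none of the 8 was called, where 5.25% of all genes were called (3% higher and 2.25% lower). There the libraries did not overlap for MT1E and SLC30A1, which were higher, and for MT1F and SLC39A6, which were lower, as was so for 33.5% of all genes (16.4% higher and 17.1% lower). Before adjustment, 2 of the 8 were under 0.05 in edgeR's test, MT1E and MT1F, and of the other tools DESeq2 called MT1E and limma-voom called none. The comparison of fPS 100 against fPS 25 called the same 5 members in the same directions, 4 higher and 1 lower, where 13.7% of all genes were called (6.31% higher and 7.43% lower). Their libraries did not overlap either, as was so for 35.1% of all genes (17.6% higher and 17.5% lower). The median log2 fold change of the 8 members was 0.86, 0.01 and 0.93 in these 3 comparisons, beside 0.01, −0.01 and 0.02 for all genes tested. The 3 comparisons share libraries with each other, so they are not independent of each other. Because the members were chosen with earlier results of these data known, their counts and medians are not those of an unselected set.

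Promoters of metallothionein genes are known to carry the sequence that MTF1 reads, and 4 promoters are shown because they differ in how often they hold it and in whether their gene rose. The 250 bases before the annotated start of each gene were taken from RefSeq (GRCh38.p14). Capitals mark each match to the core of a metal response element, TGCGCNC or TGCACNC, on either strand, so that a match on the opposite strand reads GNGCGCA or GNGTGCA. MT2A (chr16:56608334-56608583, plus strand) and MT1X (chr16:56682220-56682469, plus strand) rose at 100 µg/ml, MT1H (chr16:56669564-56669813, plus strand) was not detected in any library, and SLC30A1 (chr1:211579162-211579411, minus strand) is the exporter.
MT2A: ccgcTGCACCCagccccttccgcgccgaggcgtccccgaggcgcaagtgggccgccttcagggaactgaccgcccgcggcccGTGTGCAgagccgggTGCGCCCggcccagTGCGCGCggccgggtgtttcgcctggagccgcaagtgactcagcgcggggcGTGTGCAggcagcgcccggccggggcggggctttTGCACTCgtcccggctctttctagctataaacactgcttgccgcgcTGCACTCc
MT1X: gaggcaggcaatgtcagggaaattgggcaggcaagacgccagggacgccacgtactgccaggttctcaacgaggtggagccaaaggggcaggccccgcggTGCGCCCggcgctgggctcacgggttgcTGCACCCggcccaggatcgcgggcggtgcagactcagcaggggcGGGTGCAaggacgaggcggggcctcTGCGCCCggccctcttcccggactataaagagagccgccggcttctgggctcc
MT1H: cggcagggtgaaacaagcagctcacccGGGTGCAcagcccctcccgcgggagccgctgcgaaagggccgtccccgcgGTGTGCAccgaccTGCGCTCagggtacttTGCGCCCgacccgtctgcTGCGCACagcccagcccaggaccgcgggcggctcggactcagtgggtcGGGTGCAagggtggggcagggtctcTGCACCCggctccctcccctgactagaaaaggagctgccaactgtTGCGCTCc
SLC30A1: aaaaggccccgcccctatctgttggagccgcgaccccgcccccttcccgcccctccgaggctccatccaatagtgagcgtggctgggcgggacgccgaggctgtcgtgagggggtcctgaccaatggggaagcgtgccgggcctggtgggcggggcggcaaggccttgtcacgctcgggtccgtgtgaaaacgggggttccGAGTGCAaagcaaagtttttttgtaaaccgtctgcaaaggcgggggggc

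The MT2A window held 7 metal response element cores, the first of them beginning 246 and the last 8 bases before the start. A count of 7 or more was found in 11 of 35116 windows of the same length, or 0.0313%, and 2 of those 11 belonged to metallothionein genes. The MT1X window held 4 cores, a number reached by 0.370% of windows. The MT1H window held 8, a number reached by 0.0171%, although MT1H had 0 counts in all 9 libraries. SLC30A1 held 1 core, as at least 1 was found in 24.8% of windows. SLC39A6 also held 1, and no core was found in the windows of MTF1 or SLC39A10, which says only that these letters are not there. The windows of SLC39A10, chr2:195656708-195656957 and chr2:195656976-195657225, lie inside the span of the gene and not before its first base. The core of an antioxidant response element, TGACNNNGC, was searched on both strands as well. It was found once each in the windows of MT2A, MT1X and SLC30A1, once in that of MT1B, which had 2 counts over all 9 libraries, and in 10.9% of all windows. None of these matches overlapped a metal response element core. Windows were at hand for 6 of the 10 members, and a match is a stretch of letters, not a measured binding site. Those missing were MT1E, which had the largest rise, MT1F, which was expressed and did not rise, MT1G and MT1M.

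**Figure D1:**
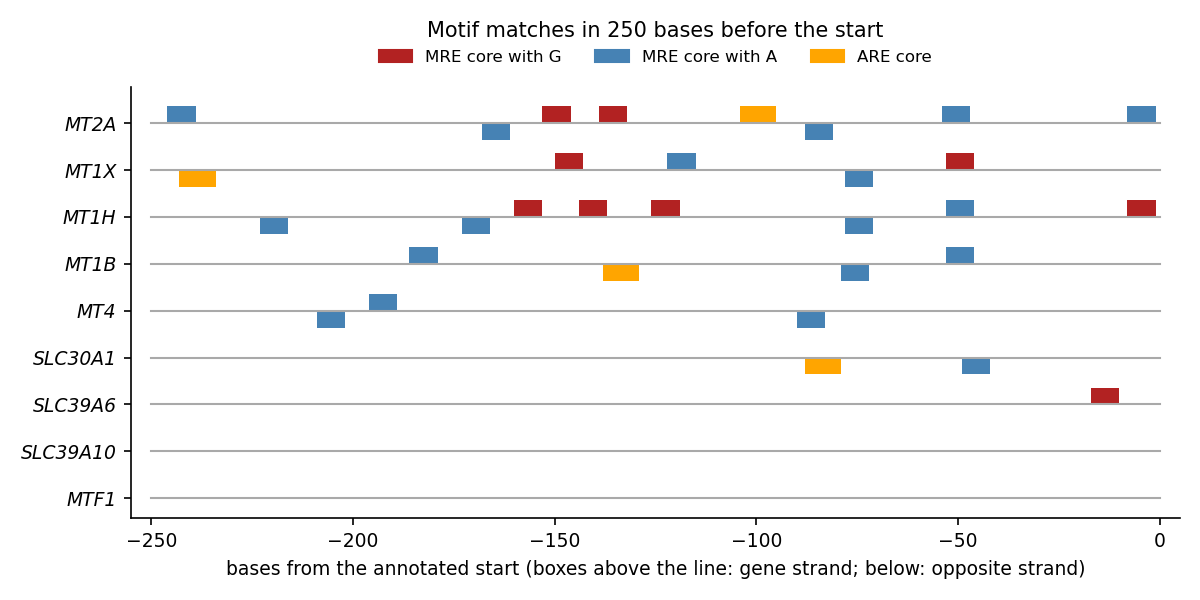
Positions of the motif matches in the 250 bases before the annotated start of 9 genes, in bases from the start, with boxes above the line on the gene's strand and boxes below it on the opposite strand. MRE stands for metal response element and ARE for antioxidant response element. MT1H with 8 and MT2A with 7 MRE cores hold the most, SLC30A1 and SLC39A6 hold 1 each, and SLC39A10 and MTF1 hold none. For SLC39A10 the windows lie inside the span of the gene.

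Total counts were 16.4M to 29.3M per library, so that 0 counts allows up to 0.102 to 0.183 CPM, the unit of counts scaled to library size that is used below. All 6 keratinocyte markers stood at 1 CPM or more in every group. Their sum was 3228 to 3652 CPM in control, 2858 to 3118 CPM in fPS 25 and 2861 to 2970 CPM in fPS 100, so that both fPS groups lay below control. KRT5 was the largest part of it, averaging 2064 CPM in control, 1612 CPM in fPS 25 and 1348 CPM in fPS 100. In fPS 100 against control KRT5 was called lower, CDH1, TP63 and ITGB4 higher, and KRT14 and PKP1 were not called. Without replicate 3 of fPS 100, 1 keratinocyte marker was called higher and 2 lower in that comparison. In that fit 5658 of all genes were called in place of 4393. Of 16 markers of fibroblasts, melanocytes, immune and endothelial cells, 1 in each list reached 1 CPM. That of the fibroblast list was COL1A1, averaging 10.5 CPM in control, 10.6 CPM in fPS 25 and 13.0 CPM in fPS 100. LUM and KDR, which mark fibroblasts and endothelial cells, had no count in any group. The immune list summed to 8.25 to 9.82 CPM in control, 11.7 to 13.7 CPM in fPS 25 and 18.0 to 19.8 CPM in fPS 100, and its member above 1 CPM was CD68, a lysosomal protein. The fPS 100 libraries differed from the other 6 in holding counts of nuclear ribosomal RNA, at 6.06% to 8.48% of all counts against 0%. Replicate 3 of fPS 100 stood apart from replicates 1 and 2 of its group on the second principal component, at 35.2 against −19.0 and −9.91, and protein-coding transcripts of mitochondria took 2.09% of its other counts against 5.34% and 4.62%. With ribosomal RNA genes removed before scaling, the log2 fold change in fPS 100 against control was 2.73 for MT2A, 3.15 for MT1E, 1.62 for MT1X, 1.91 for SLC30A1 and −1.30 for SLC39A10. That removal bears on the scaling only. Every fPS 100 library and no other held ribosomal RNA counts, so what lies behind them cannot be told apart from the concentration. The part that the keratinocyte marker sum, the CD68 level and the mitochondrial share play in the results was not tested.

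MT2A, the most abundant metallothionein in these cells, is known as the main zinc-binding form in many human tissues (chr16:56608584-56609497). Its levels in replicates 1 to 3 were 139, 171 and 118 CPM in control, 150, 159 and 181 CPM in fPS 25, and 698, 743 and 1388 CPM in fPS 100. All fPS 100 libraries lay above all others, replicate 3 of fPS 100 was the highest of its group, and the fPS 25 and control libraries overlapped. The log2 fold change was 2.72 ± 0.25 in fPS 100 against control (SE, adjusted p = 2.63e-05, edgeR) and 2.53 ± 0.25 in fPS 100 against fPS 25 (adjusted p = 8.83e-05, edgeR). For fPS 25 against control the change was 0.19 ± 0.23 (adjusted p = 0.687, edgeR), with a 95% interval of −0.38 to 0.77. Without replicate 3 of fPS 100 the change against control was 2.34 (adjusted p = 2.62e-06, edgeR). MT2A ranked 31st from the top of all 14637 genes by fold change in fPS 100 against control.

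MT1E, a metallothionein of the MT1 class, had the largest change among the members in fPS 100 against control (chr16:56625781-56627112). It stood at 24.8, 30.1 and 23.5 CPM in control, 38.7, 39.4 and 45.4 CPM in fPS 25, and 261, 280 and 157 CPM in fPS 100. The 3 groups did not overlap, and replicate 3 of fPS 100 was the lowest of its group, where for MT2A it was the highest. The log2 fold change was 3.15 ± 0.20 in fPS 100 against control (adjusted p = 5.93e-06, edgeR), the 23rd highest of all genes, and 2.50 ± 0.20 against fPS 25 (adjusted p = 2.71e-05, edgeR), close to the 2.53 of MT2A there. In replicate 3 of fPS 100 MT2A, at 9.72 times its control mean, was further from control than MT1E. For fPS 25 against control it was 0.66 ± 0.19 with a 95% interval of 0.19 to 1.13, which did not pass the threshold after adjustment (adjusted p = 0.0762, edgeR), although all 3 fPS 25 libraries were higher than all 3 controls. This call depended on the fit. MT1E passed in fPS 25 against control with DESeq2 (adjusted p = 0.0136), with no filter on low counts (adjusted p = 4.42e-06, edgeR), with only those groups in the fit (adjusted p = 0.00875, edgeR) and without replicate 3 of fPS 100 (adjusted p = 0.00322, edgeR), and over all 21 alternatives its adjusted p ran from 4.42e-06 to 0.213. The fit with no filter also gave MT1E an adjusted p of 3.04e-127 (edgeR) in fPS 100 against control, against 5.93e-06 in the main fit. The small values of that fit are therefore not read as stronger evidence.

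MT1X, another MT1 metallothionein (chr16:56682470-56684196), was at 15.4, 17.4 and 12.0 CPM in control, 16.1, 12.6 and 16.8 CPM in fPS 25, and 46.4, 53.5 and 38.0 CPM in fPS 100. The fPS 100 libraries lay above all others, while fPS 25 and control covered the same range. Its log2 fold change was 1.62 ± 0.17 in fPS 100 against control (adjusted p = 6.41e-05, edgeR) and 1.60 ± 0.17 in fPS 100 against fPS 25 (adjusted p = 0.000151, edgeR). MT1X was at 0.02 ± 0.17 in fPS 25 against control (adjusted p = 0.969, edgeR), with a 95% interval of −0.40 to 0.44. In the GENCODE 29 transcripts, 55.8% of the 50-base stretches of MT1X also occur in an overlapping noncoding gene, AC026461.1, so its count may depend on how reads were assigned. For MT2A, MT1E and MT1F the share of 50-base stretches found in other genes was 4.88%, 10.6% and 3.59%, and no 100-base stretch of these 3 genes was shared. For MT1X, 50.8% of the 100-base stretches also occur in AC026461.1.

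MT1F, also of the MT1 class (chr16:56657959-56659303), was not called in any of the 3 comparisons. It was at 6.35, 7.56 and 5.03 CPM in control, 3.68, 4.67 and 4.29 CPM in fPS 25, and 4.88, 6.54 and 3.79 CPM in fPS 100. The fPS 100 libraries overlapped both other groups, and the fPS 25 libraries were all below the controls. On the log2 scale the change was −0.32 ± 0.22 in fPS 100 against control (adjusted p = 0.290, edgeR), with a 95% interval of −0.85 to 0.21. In fPS 25 against control it was −0.58 ± 0.22 (adjusted p = 0.161, edgeR), and in fPS 100 against fPS 25 it was 0.26 ± 0.22 (adjusted p = 0.491, edgeR). The upper end of its interval in fPS 100 against control lies below the lower ends for MT2A at 2.12, MT1E at 2.66 and MT1X at 1.20. The differences between the genes themselves were not tested.

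MT1G and MT1M, the other MT1 members, were at the floor of these libraries (chr16:56666730-56668065 and chr16:56632659-56633981). MT1G had 2 counts in replicate 3 of fPS 100 and 0 in the other 8 libraries. MT1M had 0 counts in all 9 libraries. A count of 0 allows up to 0.102 to 0.183 CPM in a single library, and these limits cover counting error only.

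**Figure D2:**
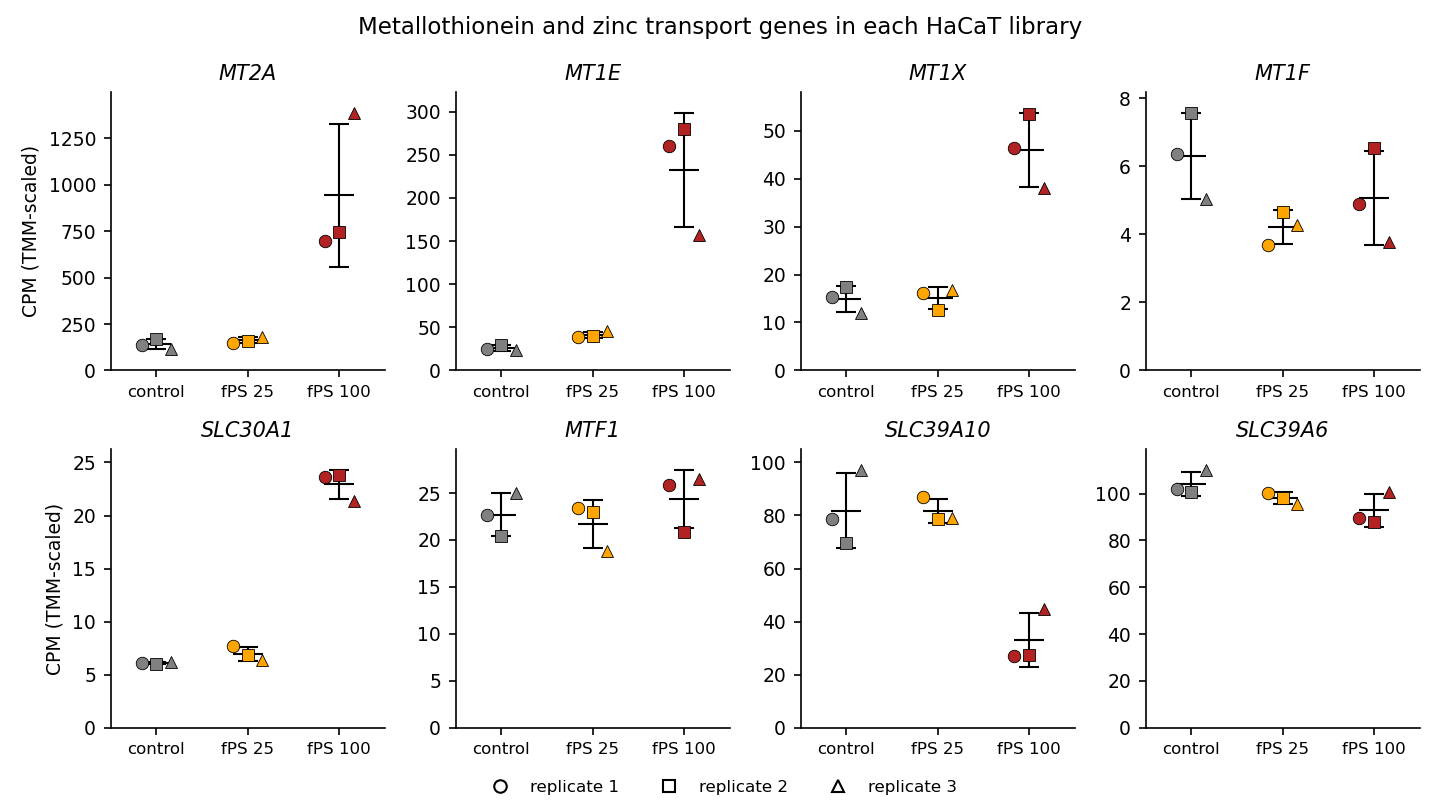
TMM-scaled CPM of the 8 members with enough counts for the test, by group and library, with the bar at the mean ± SD (n = 3). MT2A, MT1E, MT1X and SLC30A1 are higher in every fPS 100 library than in any control library, SLC39A10 is lower, and MT1F, MTF1 and SLC39A6 overlap between fPS 100 and control.

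Summed over the 6 members of the family, metallothionein counts were 0.0190%, 0.0227% and 0.0167% of all counts in control, 0.0217%, 0.0223% and 0.0252% in fPS 25, and 0.1000%, 0.103% and 0.142% in fPS 100. The 95% Wilson intervals of these shares, which cover counting error only, were narrow beside the spread between libraries, for example 0.140% to 0.143% for replicate 3 of fPS 100. In CPM the sum was 190 ± 34.2 in control, 224 ± 20.7 in fPS 25 and 1226 ± 314 in fPS 100 (SD, n = 3 each). The fPS 100 libraries lay above all controls, with p = 0.1 in a 2-sided exact permutation test, which is the smallest p that 3 against 3 libraries allow. The fPS 25 and control libraries overlapped (p = 0.3, exact permutation test).

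The makeup of this pool varied between libraries. MT1E took 13.3%, 13.3% and 14.9% of metallothionein counts in control, 18.6%, 18.3% and 18.4% in fPS 25, and 25.8%, 25.9% and 9.88% in fPS 100. MT2A took 75.0%, 75.7% and 74.4% in control, 71.9%, 73.8% and 73.1% in fPS 25, and 69.1%, 68.6% and 87.5% in fPS 100. In replicates 1 and 2 of fPS 100 the share of MT1E was thus above that of every other library, and in replicate 3 it was below that of every other library. The ratio of MT1E to MT1X counts was 1.61, 1.73 and 1.96 in control, 2.40, 3.14 and 2.71 in fPS 25, and 5.62, 5.24 and 4.12 in fPS 100. Here the 3 groups did not overlap, with p = 0.1 for each pair of groups in a 2-sided exact permutation test, the smallest p possible. This ratio rests on the MT1X count, which may depend on how reads were assigned. The ratio of MT2A to MT1E counts was 5.01 to 5.69 in control and 3.87 to 4.04 in fPS 25. It was 2.68, 2.65 and 8.86 in the fPS 100 libraries, so that replicates 1 and 2 lay below the controls and replicate 3 above them.

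**Figure D3:**
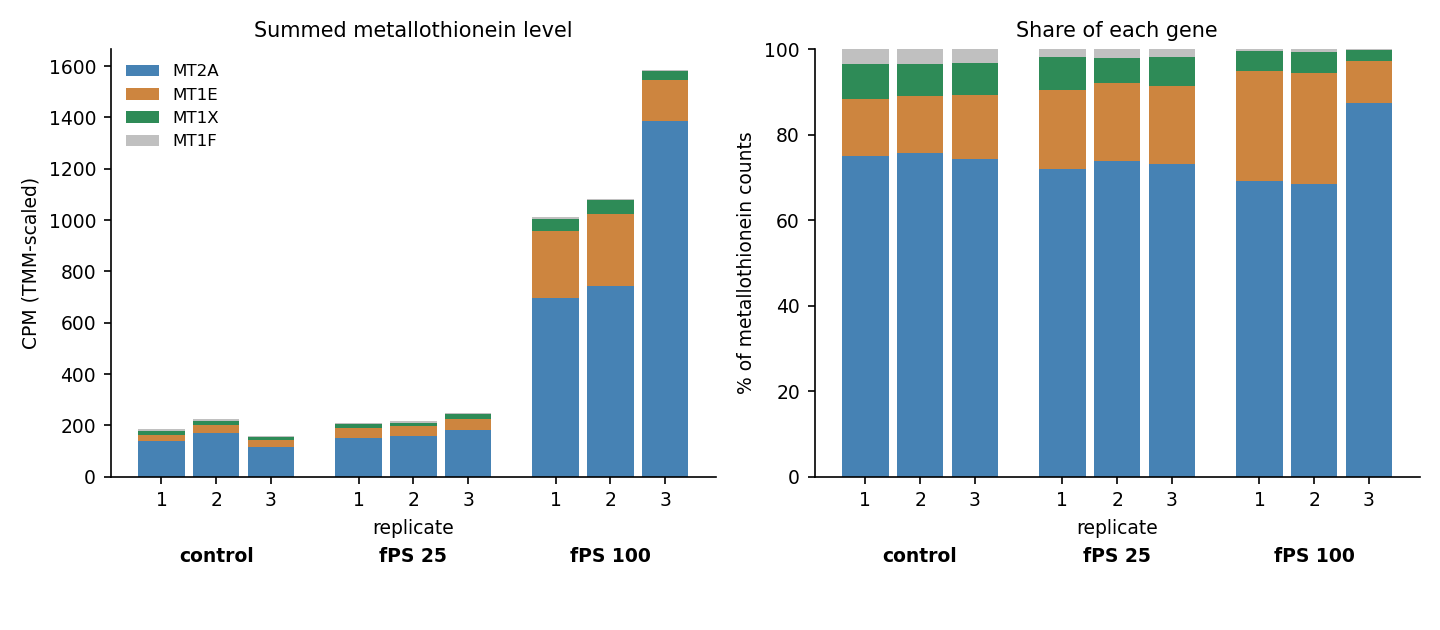
Left, summed TMM-scaled CPM of the metallothionein members in each library, stacked by gene; right, the share of each gene among metallothionein counts in percent. The summed level is 158 to 226 CPM in control, 208 to 247 CPM in fPS 25 and 1010 to 1586 CPM in fPS 100, and MT2A takes 87.5% of the counts in replicate 3 of fPS 100.

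SLC30A1, the plasma membrane transporter that moves zinc out of the cell (chr1:211571568-211579161), rose with little spread. It was at 6.09, 6.02 and 6.23 CPM in control, 7.66, 6.81 and 6.39 CPM in fPS 25, and 23.6, 23.8 and 21.4 CPM in fPS 100. The 3 fPS 100 libraries lay above all others, and replicate 3 was near its group mates. Its change on the log2 scale was 1.91 ± 0.12 in fPS 100 against control (adjusted p = 4.47e-06, edgeR), the 94th highest of all genes, and 1.72 ± 0.11 against fPS 25 (adjusted p = 1.16e-05, edgeR). All 3 fPS 25 libraries were higher than all 3 controls, as was so for 16.4% of genes, but the difference was 0.18 ± 0.12 and did not pass (adjusted p = 0.414, edgeR), with a 95% interval of −0.11 to 0.47.

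MTF1, the zinc-sensing transcription factor itself (chr1:37809574-37859592), was at 22.7, 20.4 and 25.0 CPM in control, 23.4, 23.0 and 18.8 CPM in fPS 25, and 25.8, 20.8 and 26.5 CPM in fPS 100. The 3 groups overlapped. MTF1 was at 0.10 ± 0.13 on the log2 scale in fPS 100 against control (adjusted p = 0.593, edgeR), with a 95% interval of −0.22 to 0.42. The difference was −0.07 ± 0.13 in fPS 25 against control (adjusted p = 0.824, edgeR). The factor is known to be regulated through zinc binding and its move to the nucleus, neither of which is measured by RNA counts.

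SLC39A10, an importer that brings zinc across the plasma membrane (chr2:195613029-195737700), was the member that fell. It was at 78.7, 69.5 and 97.1 CPM in control, 87.0, 78.8 and 79.1 CPM in fPS 25, and 27.1, 27.5 and 44.8 CPM in fPS 100. All fPS 100 libraries lay below all others, replicate 3 the least so, and fPS 25 overlapped control. The log2 fold change was −1.30 ± 0.19 in fPS 100 against control (adjusted p = 0.000453, edgeR), the 416th lowest of all genes, and −1.30 ± 0.19 in fPS 100 against fPS 25 (adjusted p = 0.000964, edgeR). Without replicate 3 of fPS 100 the change against control was −1.58 (adjusted p = 1.50e-05, edgeR). In fPS 25 against control the interval was −0.45 to 0.44, around a difference of −0.00 ± 0.18 (adjusted p = 0.995, edgeR) whose sign turned with the setting. Because these are bulk libraries, fewer cells of a kind and less RNA per cell cannot be told apart.

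SLC39A6, an importer of the same subfamily that is known to pair with SLC39A10 (chr18:36108531-36129340), was at 102, 101 and 110 CPM in control, 100.4, 98.0 and 95.4 CPM in fPS 25, and 89.7, 87.8 and 101 CPM in fPS 100. Replicates 1 and 2 of fPS 100 were below all controls and replicate 3 was inside their range. The log2 fold change of −0.17 ± 0.08 in fPS 100 against control did not pass (adjusted p = 0.155, edgeR). Without replicate 3 of fPS 100 it was −0.23 and passed (adjusted p = 0.0299, edgeR). The difference was −0.09 ± 0.08 in fPS 25 against control (adjusted p = 0.587, edgeR).

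**Figure D4:**
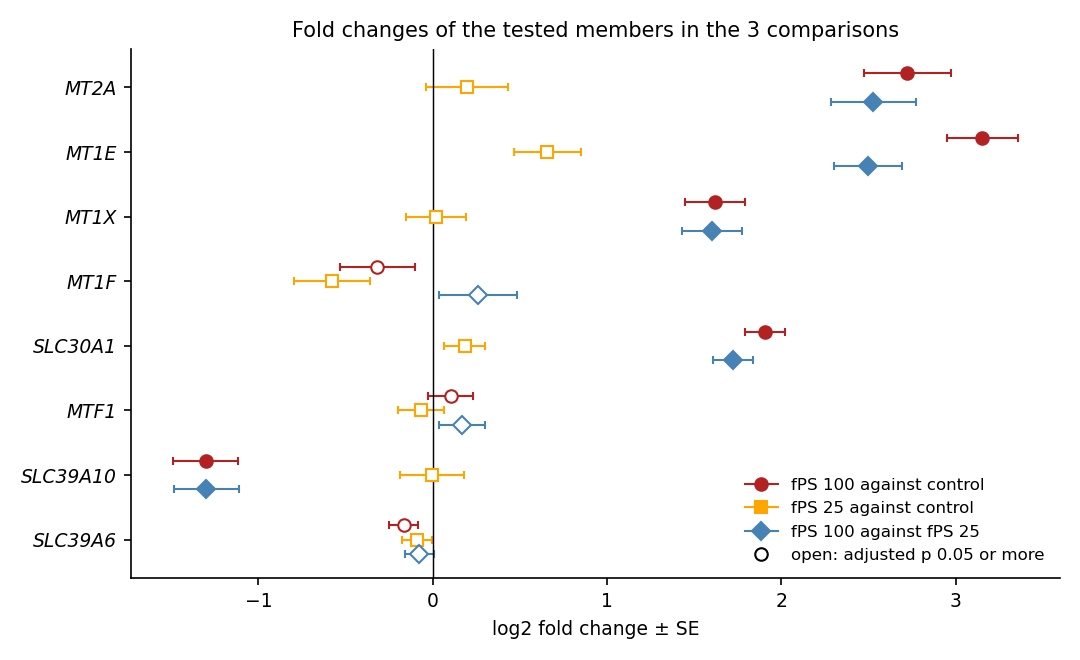
Log2 fold change ± SE of the 8 tested members in the 3 comparisons, on a linear axis of log2 values, with filled symbols for an adjusted p under 0.05 and open symbols for the rest. In fPS 100 against control MT1E is at 3.15, MT2A at 2.72, SLC30A1 at 1.91, MT1X at 1.62 and SLC39A10 at −1.30, and in fPS 25 against control every symbol is open.

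Levels of different genes were compared per length, with the authors' log2 values turned back to a linear scale that is adjusted for gene length and library depth. In control, MT2A averaged 424, MT1E 58.8, MT1X 47.0, SLC39A6 24.1, MT1F 17.3, SLC39A10 12.9, SLC30A1 2.64 and MTF1 2.36 on that per-length scale. Neighbours in this order overlapped between MT1F and SLC39A10 and between SLC30A1 and MTF1, and the libraries of the other neighbours lay apart. In fPS 25 the order was the same apart from SLC39A10 at 13.1 and MT1F at 12.4, which overlapped, and SLC30A1 and MTF1 lay apart. In fPS 100, MT2A averaged 2902, MT1E 548, MT1X 152, SLC39A6 21.9, MT1F 14.6, SLC30A1 10.1, SLC39A10 5.28 and MTF1 2.60 per length, and the only neighbours among these 8 that overlapped were MT1F and SLC30A1. There the exporter SLC30A1 stood above the importer SLC39A10 in all libraries, at 9.25 to 10.6 against 4.37 to 7.07, whereas in control it stood below it, at 2.56 to 2.72 against 10.8 to 15.3.

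The metallothionein genes lie in a cluster on chromosome 16 that spans chr16:56565073-56684196 in GRCh38.p14, or 119.1 kb, with 16 annotated genes and pseudogenes of which 11 code for protein. MT2A, MT1E, MT1F and MT1X had enough counts for the test. MT1DP, a transcribed pseudogene, had 27 counts over all 9 libraries, and the other 11 had at most 3, with 5 at 0. MT1E and MT1X, which rose, lie 17.2 kb and 73.9 kb from the start of MT2A, with MT1M, MT1G and MT1H, at 0 to 2 counts, and MT1F between them.

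**Figure D5:**
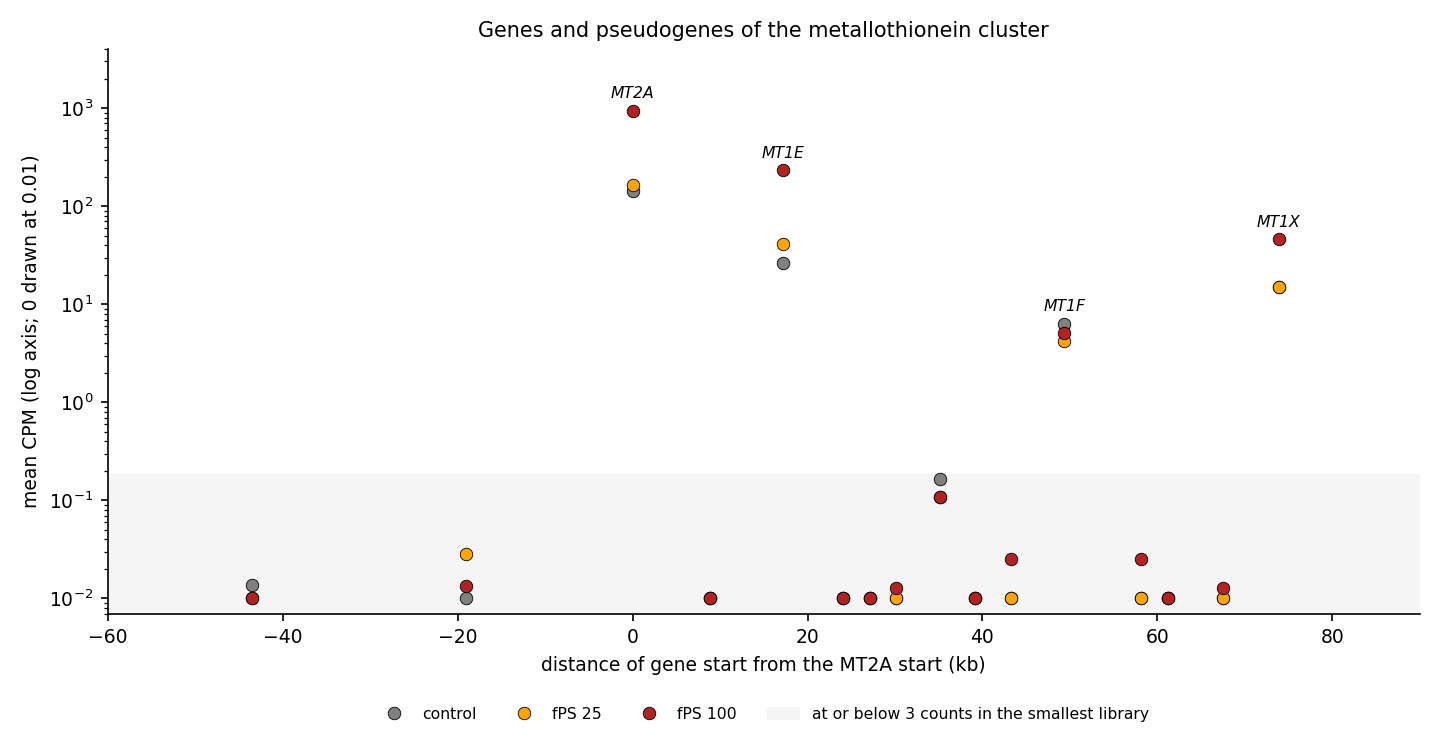
Mean CPM in each group, on a log axis with 0 drawn at 0.01, of the genes and pseudogenes of the metallothionein cluster against the distance of the gene start from that of MT2A in kb. MT2A, MT1E and MT1X are higher in fPS 100, MT1F is not above control, and 12 metallothionein genes lie in the grey band, at or below the level of 3 counts in the smallest library. That level is taken before TMM scaling.

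Other genes that handle metals were read from lists. The shares of all genes called, against which the list counts stand, were 30% in fPS 100 against control, 5.25% in fPS 25 against control and 13.7% in fPS 100 against fPS 25. These shares belong to the fit of all 9 libraries. Without replicate 3 of fPS 100, 5658 genes were called in place of 4393 in fPS 100 against control. In fPS 25 against control 1946 were called in place of 768. List counts given below without that replicate therefore do not stand against these shares. Of 9 other SLC30 transporters, which move zinc out of the cytosol, 6 were tested, and in fPS 100 against control 1 was called higher and 1 lower (median log2 fold change 0.10), or 2 higher and 1 lower without replicate 3 of fPS 100. A count of 2 in 6 is close to the 30% of all genes. SLC30A4, which loads zinc into endosomes and lysosomes, was at 0.711, 0.512 and 0.866 CPM in control, 1.52, 1.53 and 1.67 CPM in fPS 25 and 4.20, 3.25 and 2.45 CPM in fPS 100 for replicates 1, 2 and 3 in this order. The 3 groups did not overlap. SLC30A4 was called in fPS 100 against control (2.24 ± 0.27, adjusted p = 0.000148, edgeR), in fPS 25 against control (1.18 ± 0.29, adjusted p = 0.0389, edgeR) and in fPS 100 against fPS 25 (1.06 ± 0.25, adjusted p = 0.0153, edgeR). Its call in fPS 25 against control held in 13 of 21 alternatives, and was lost without control replicates 1 or 2, any fPS 25 replicate or fPS 100 replicate 2. Its call in fPS 100 against fPS 25 was lost in 3 of 21 alternatives. SLC30A3, known for loading zinc into synaptic vesicles, was lower in fPS 100 against control (−0.99 ± 0.24, adjusted p = 0.00849, edgeR), at 0.880 to 1.45 CPM against 2.10 to 2.72 CPM.

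Of 12 other SLC39 importers 8 were tested, and in fPS 100 against control 3 were called lower and 1 higher (median −0.24). SLC39A7, of the same list, had no count in any library, and whether its reads could be counted is not known. SLC39A8, which carries zinc, manganese and cadmium into cells, was at 4.68, 3.62 and 5.59 CPM in fPS 100, against 8.22, 9.13 and 9.69 CPM in control (−0.96 ± 0.16, adjusted p = 0.00125, edgeR). SLC39A3 and SLC39A1, importers of the plasma membrane, fell by 0.53 and 0.39 on the log2 scale, and SLC39A11 rose by 0.56. The calls for SLC39A3 and SLC39A1 were lost in 3 and 6 of 21 alternatives. Without replicate 3 of fPS 100 the count was 4 lower and 1 higher. In fPS 25 against control 0 of the 8 were called, or 2 lower without that replicate. Between fPS 100 and fPS 25, SLC39A11 and SLC39A13 were called higher (0.38 ± 0.10 and 0.73 ± 0.17) and SLC39A8 lower (−0.78 ± 0.16). The calls for SLC39A11 and SLC39A13 there were lost in 7 and 2 of 21 alternatives. Leaving out replicate 3 of fPS 100 took the log2 fold change of SLC39A13 to 0.46.

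Among 5 genes of zinc sensing and zinc chaperones, 4 were tested and 1 was called. ZNF658, a zinc finger protein known to act on genes with a zinc-responsive element, was at 3.78, 2.32 and 3.34 CPM in control, 6.31, 5.86 and 5.62 CPM in fPS 25, and 9.33, 8.37 and 6.51 CPM in fPS 100. The 3 groups did not overlap. It was called in fPS 100 against control (1.36 ± 0.20, adjusted p = 0.000494, edgeR) and in fPS 25 against control (0.92 ± 0.20, adjusted p = 0.0262, edgeR), the second of which held in 17 of 21 alternatives and was lost without control replicate 2 or any fPS 25 replicate. In fPS 100 against fPS 25, 0 of the 4 were called, or 1 higher without replicate 3 of fPS 100.

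In the list of copper handling, 10 of 10 genes were tested, and in fPS 100 against control 3 were called higher and 1 lower (median −0.01), beside 30% of all genes. COMMD1, a copper homeostasis protein, rose (0.94 ± 0.14), as did SLC31A2, a transporter of copper in endosomes (0.53 ± 0.13), and SCO2, which delivers copper to cytochrome c oxidase (0.52 ± 0.14). The call for SCO2 was lost in 2 of 21 alternatives. SLC31A1, the main copper importer, fell by 0.27 on the log2 scale, a call lost in 7 of 21 alternatives. Without replicate 3 of fPS 100 the change of SLC31A2 was 0.33. In fPS 25 against control 0 of the 10 were called, or 1 higher without that replicate. SLC31A2 was called in fPS 100 against fPS 25 (0.61 ± 0.13), a call lost in 2 of 21 alternatives.

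Among 10 genes known to respond to metals and oxidants, 8 were tested, and in fPS 100 against control 4 were called higher and 2 lower (median 0.42). GCLC, which makes the precursor of glutathione, rose (0.70 ± 0.11), as did SLC7A11, which imports cystine for it (0.55 ± 0.14). The call for SLC7A11 was lost in 3 of 21 alternatives. The heat shock genes HSPA1B and DNAJB1, which heavy metals are known to induce, were lower (−0.79 ± 0.18 and −0.41 ± 0.08). HSPA1B was low, at 2.34 to 2.79 CPM in fPS 100 against 3.59 to 4.98 CPM in control, and its call was lost in 2 of 21 alternatives. HSPA1A, of the same list, had no count in any library, and how reads were shared between these genes is not known. The other 2 that rose are named because they complete the count. HMOX1, heme oxygenase, was at 29.03, 22.7 and 102 CPM in fPS 100, against 15.8, 18.2 and 12.4 CPM in control. Its log2 fold change was 1.73 ± 0.53 (adjusted p = 0.0428, edgeR), or 0.75 without replicate 3 of fPS 100 (adjusted p = 0.00337, edgeR), and it passed in 12 of 21 alternatives. OSGIN1, an oxidative stress response gene, was at 0.54 ± 0.16 in fPS 100 against control, or 0.37 without that replicate, where it did not pass (adjusted p = 0.0561, edgeR). It passed in 16 of 21 alternatives. Without that replicate the list had 3 called higher and 3 lower in fPS 100 against control. In fPS 25 against control 0 of the 8 were called, or 1 higher and 2 lower without it. In fPS 100 against fPS 25 OSGIN1 was the 1 called (0.78 ± 0.16), where 2 were called higher without that replicate.

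Of 9 genes of the glucocorticoid response 7 were tested, since metallothioneins are known targets of that hormone. Of these, 2 were called higher and 1 lower in fPS 100 against control (median 0.01), or 2 higher and 2 lower without replicate 3 of fPS 100. TSC22D3, a leucine zipper protein induced by glucocorticoids, was lower (−1.37 ± 0.16, adjusted p = 0.000144, edgeR), and CEBPD and DUSP1, which many stimuli induce, were higher (1.31 ± 0.24 and 1.26 ± 0.17). In fPS 100 against fPS 25, CEBPD and DUSP1 were higher (1.26 ± 0.24 and 0.68 ± 0.17) and TSC22D3 and FKBP5, another glucocorticoid target, were lower (−1.10 ± 0.16 and −0.64 ± 0.13). The call for DUSP1 there was lost in 3 of 21 alternatives. In fPS 25 against control 0 of the 7 were called, or 2 higher without replicate 3 of fPS 100.

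Across the 9 libraries, log2 CPM of the members that rose ran together, with Pearson r of 0.92 between MT2A and MT1E, 0.93 between MT2A and MT1X, 0.97 between MT1E and MT1X, and 0.95 to 0.98 between SLC30A1 and these 3. SLC39A10 ran the other way, with r of −0.97 to −0.87 with those 4 genes. MT1F was between −0.15 and 0.05 with the metallothioneins that rose. These are descriptions over 9 libraries that fall into 3 groups, with the fPS 100 libraries at 1 end of each relation.

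Of 12728 genes at a mean of at least 1 CPM, the 5 whose pattern over the 9 libraries was most like that of MT2A included FHL2 (r = 0.996), CDKN1A (r = 0.995), RILPL1 (r = 0.990) and MICAL1 (r = 0.990). CDKN1A, a cell cycle inhibitor, averaged 368 ± 55.1 CPM in fPS 100, against 136 ± 8.30 CPM in control. Closest to SLC30A1 were IGFL2-AS1, NADSYN1, RNA18S5, RNA28S5 and RNA5-8S5, with r of 0.991 to 0.992, the last 3 being ribosomal RNA genes with counts in the fPS 100 libraries and none in the other 6. IGFL2-AS1, an antisense gene whose reads cannot be told from those of its partner when the strand setting is unknown, averaged 158 ± 10.1 CPM in fPS 100, against 44.4 ± 2.30 CPM in control. Closest to SLC39A10 were IMMT, KPNB1, HSPA9, CS and IPO5, with r of 0.978 to 0.982. IMMT, a protein of the inner mitochondrial membrane, averaged 128 ± 8.31 CPM in fPS 100, against 152 ± 6.12 CPM in control.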

How the data were processed

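RNA of 9 HaCaT libraries was enriched for poly(A) and made into sequencing libraries, per the labels' protocols. Conversion with bcl2fastq and the build GRCh38.p14 are given per the submitters' processing notes, while for the aligner, counter, annotation and strandedness nothing is given in the sources used here. The deposited table of the series holds raw read counts made by the authors, with 58173 rows and no normalization, and no row lacks a gene name. Its 3 values of more than 6 digits appear rounded. The authors' deposited files per sample hold log2 values of 1 plus a value scaled for length and depth, the scaling not being further described.

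Rows of a symbol were summed. Genes were kept with filterByExpr (minimum count 10, minimum total 15), scaled by TMM and fitted over all 9 libraries in edgeR 4.0.16 (R 4.3.3, robust quasi-likelihood test). This left 14637 genes and 6 residual degrees of freedom. Tests are 2-sided with Benjamini-Hochberg adjustment over all genes, called at 0.05. SE is the size of the log2 change divided by the root of its F statistic, and 95% intervals use 6 degrees of freedom. CPM are TMM-scaled.

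The members and gene lists (7 lists of other metallothioneins, zinc and copper transport, zinc sensing, metal stress and glucocorticoid response, and 5 of cell type markers) were chosen with earlier results of these data known. Named were all members, up to 4 called genes per list and comparison with the smallest adjusted p, and the 5 genes most correlated with MT2A, SLC30A1 and SLC39A10, clone names passed over; 1 gene of this rule is not reported here. OSGIN1 and HMOX1, CD68, COL1A1, MT1H, MT1DP and SLC39A7 were named after their values were seen. Of the 11 other metallothionein genes and pseudogenes listed, 0 had enough counts for the test. Cell type marker lists gave 3 of 6 keratinocyte genes higher and 1 lower in fPS 100 against control, and CD68 alone of the other lists, higher at both concentrations. Without replicate 3 of fPS 100 the keratinocyte count was 1 higher and 2 lower in fPS 100 against control, and 0 higher and 2 lower in fPS 25 against control in place of 0. In that fit more of all genes were called in both comparisons, 5658 and 1946 in place of 4393 and 768.

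Alternatives were DESeq2 1.42.0, limma-voom (limma 3.58.1), a non-robust fit, scaling by RLE or upper quartile, no filter or at least 1 CPM in 3 libraries, only the compared groups, the replicate number as a block, separate rows per symbol, removal of ribosomal RNA genes, the authors' log2 values tested with limma, and each library left out. The procedure was tested on simulated data.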

Additional observations from a re-analysis of the deposited data

How the results depend on the processing

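Each of the 8 tested members was refitted in the 3 comparisons under 21 alternatives, 504 values in all. Of these, 484 kept their direction and their side of the threshold, none of the called changes was lost, 5 passed newly and 15 changed sign. Those that passed newly were MT1E in fPS 25 against control, under 4 alternatives, and SLC39A6 in fPS 100 against control. Over the alternatives, fPS 100 against control ran from 3.0 to 3.37 for MT1E, 2.34 to 2.90 for MT2A, 1.61 to 1.96 for SLC30A1, 1.48 to 1.75 for MT1X and −1.58 to −1.16 for SLC39A10. The sign changes were all in fPS 25 against control, at values close to 0. SLC39A10 was at 0.0373 with the authors' log2 values, 0.00831 with limma-voom, 0.00964 with upper-quartile scaling, 0.0101 without ribosomal RNA genes, 0.0154 with no filter and 0.000998 with only those groups. With a library left out it ran from −0.0971 to 0.14, MT1X from −0.117 to 0.153 and MTF1 from −0.128 to 0.0310, and each changed sign without control replicate 3 or fPS 25 replicate 3, SLC39A10 also without fPS 25 replicate 2 and MT1X without fPS 25 replicate 1. The cause was not tested.

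The count of all genes called in fPS 25 against control was 768, against 1232 with DESeq2, 1237 with no filter, 1511 with only those groups in the fit and 135 to 1946 with a library left out (1946 without fPS 100 replicate 3). With DESeq2, no filter or only those groups 1 member was called in place of 0, and 0 to 1 with a library left out. In fPS 100 against fPS 25 the count was 2012, or 1018 to 2706 with a library left out, and 5 members in each. In fPS 100 against control it was 4393, or 3249 to 5658, with 5 to 6 members. With the replicate block the counts were 3510, 318 and 1399 in fPS 100 against control, fPS 25 against control and fPS 100 against fPS 25, and SLC39A10 in fPS 25 against control was at 0.0210. In deviations from the group means, the 9 same-numbered pairs of libraries correlated at −0.39 to 0.03, and differently numbered pairs at −0.30 to 0.27. With 3 libraries per group, these values cannot decide whether libraries of the same number shared a culture or day.

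On the authors' log2 scale, to which 1 was added, changes of low genes are smaller: SLC30A4 was at 0.66 in fPS 100 against control. With 3 libraries per group, strand setting unknown and 16.4M to 29.3M counts per library, genes near 0 counts, MT1G and MT1M among them, cannot be compared.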
